A study of Homo sapiens with 18 samples.

Results

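ZC3H6, ABI3BP, FAXDC2, RRAS and L1CAM were the 5 genes whose RNA level was furthest above its 24 h value at 48 h in control-transfected HEK293 cells, a human embryonic kidney line. Their change was followed here in cells given RHOXF1 or RHOXF2, to ask whether the difference between the times was of the same size with these homeobox genes. Each gene is measured by 1 transcript cluster, a set of array probes summarised to 1 value, so the genes make up 5 of the 33297 clusters on the array, and no cluster of theirs lists another gene. The genes are named as a list, and they were chosen by the control arrays: they hold ranks 1 to 5 by the control change among the 19460 clusters with exactly 1 symbol. Inside that edge lay RRAS at 1.42 and L1CAM at 1.37 on the log2 scale, and just outside it lay FN1, which encodes fibronectin, at 1.34. All values from control arrays below are therefore descriptions without a test, while the RHOXF1 and RHOXF2 arrays did not enter the ranking. The tests on those arrays use a spread estimated over all 18 arrays, control included. Earlier results of all these arrays were known when the genes were listed.

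Cells had been transiently transfected with an RHOXF1 expression vector, an RHOXF2 expression vector or an empty control vector, using Lipofectamine in serum-free medium, and total RNA was taken 48 h or 24 h later. The groups were RHOXF1 48 h, RHOXF1 24 h, RHOXF2 48 h, RHOXF2 24 h, control 48 h and control 24 h, with 3 arrays each, described by the submitters as biological triplicates, and the treatment text names pCMV6-AC-GFP beside the RHOX clones. RHOXF1 and RHOXF2 are X-linked reproductive homeobox transcription factors. The share of cells that took up a vector is not given in the sources used here, and in bulk RNA fewer cells of a kind and less RNA per cell cannot be told apart. All values are log2 RMA expression values, so a difference of 1 is a doubling of the array signal.

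The 5 proteins work in different places. ABI3BP is a secreted protein of the extracellular matrix that was found as a binding partner of ABI3, and L1CAM is an adhesion molecule of the immunoglobulin superfamily, best known from growing axons, that binds itself, integrins and, through its cytoplasmic tail, ankyrins. RRAS is a small GTPase of the Ras family known for promoting integrin activity and cell adhesion. FAXDC2 is a membrane protein of the fatty acid hydroxylase superfamily, to which several enzymes of sterol synthesis belong. ZC3H6 carries CCCH-type zinc fingers, a fold that many RNA-binding proteins share.

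Array medians ran from 6.68 to 6.82. The transfected genes stood where the labels put them: the RHOXF1 cluster averaged 12.27 in RHOXF1 cells at 48 h and 12.25 at 24 h, against 6.13 in control at 48 h and 6.34 at 24 h. Both clusters shared by RHOXF2 and RHOXF2B averaged 12.92 in RHOXF2 cells at 48 h and 12.83 at 24 h, against 6.62 and 6.81 in control. RHOXF1 also read 7.03 to 9.12 in the RHOXF2 arrays of 48 h. Of 11 markers known from HEK293 cells, 9 averaged above the array median in every group, and 2 of the 11 were called higher over time in RHOXF1 cells, KRT8 by 0.66 and LHX1 by 0.39, and KRT8 by 0.80 in RHOXF2 cells. KRT8 encodes a keratin and LHX1 a kidney developmental factor, and their part in the results below was not tested. Markers of other cell types had a summed level over 22 genes of 120.2 to 122.2 at 48 h and 118.4 to 124.5 at 24 h. Of these 22, 3 averaged above the array median in control at 48 h and 4 in every other group. COL1A1 (8.01) and ACTA1 (7.89) were among them in RHOXF1 cells at 48 h. None of the 22 was called by limma over time in RHOXF1 or RHOXF2 cells (2 and 3 with an unadjusted p under 0.05). Of all clusters 4.42% and 1.24% were called there, and 4279 and 3539 of 21214 had an unadjusted p under 0.05. Some arrays stood apart on the first principal component, which held 34.1% of the variance over the clusters with a symbol. RHOXF2 replicate 3 at 48 h lay at -4.5, while the other 48 h arrays lay between 9.4 and 26.3. At 24 h the arrays of replicate 1 lay between -11.2 and -8.7 and the other arrays between -17.2 and -14.3. Every 48 h sample was hybridised on an array numbered 16 to 24 and every 24 h sample on 1 to 9, which means that time cannot be told apart from array order in the values below.

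**Figure D1:**
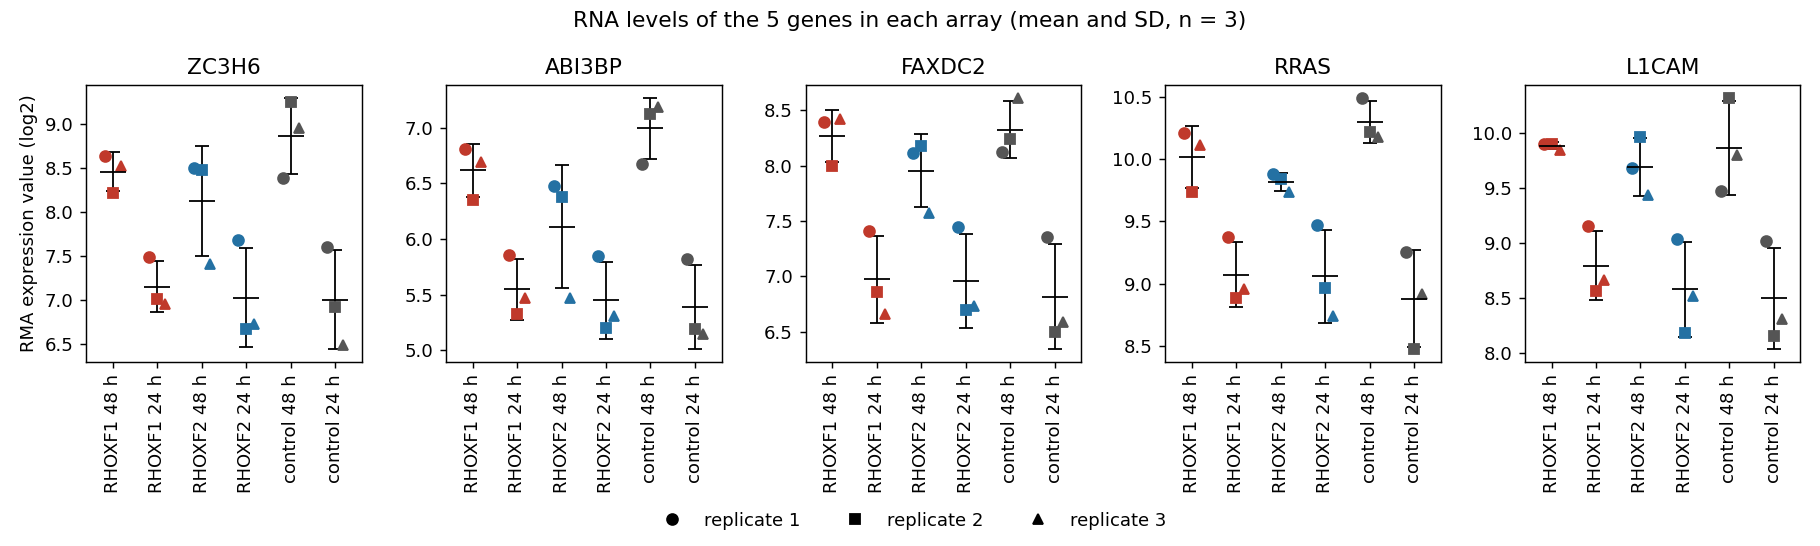
Log2 RMA expression value of each gene (one panel per gene, each with its own vertical scale) in the 6 groups; points are arrays, shaped by replicate number, and bars give the mean and SD of 3 arrays. For FAXDC2, RRAS and L1CAM every 48 h array lies above every 24 h array of its vector, and for ZC3H6 and ABI3BP replicate 3 of RHOXF2 at 48 h lies among the 24 h values.

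In RHOXF1 cells all 5 genes rose between the times. The changes ran from 1.93-fold for RRAS to 2.47-fold for ZC3H6, and for each of the 5 the 3 arrays of 48 h lay above the 3 of 24 h, as they did for 15.1% of the 21214 clusters with a symbol. All 5 passed the test, limma over all 18 arrays with p adjusted over the 21214 clusters by the Benjamini-Hochberg method at 0.05. Of all clusters 4.42% were called in this comparison, 3.06% higher and 1.35% lower, and the median change was -0.005.

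In RHOXF2 cells L1CAM rose, and the other 4 genes read higher at 48 h without passing the test. FAXDC2 (adjusted p = 0.0517) and RRAS (adjusted p = 0.0529) lay next to the limma threshold, and ZC3H6 (adjusted p = 0.086) and ABI3BP (adjusted p = 0.173) further from it. The 1 gene of 5 called stands beside 1.24% of all clusters called, 0.985% higher and 0.259% lower. Groups that did not overlap were seen in 3 of the 5 genes, beside 12% of all clusters. The median change of all clusters was 0.014.

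The matrix protein gene ABI3BP had 6.81, 6.35 and 6.69 in RHOXF1 cells at 48 h, against 5.85, 5.32 and 5.47 at 24 h. In RHOXF2 cells it had 6.47, 6.38 and 5.47 at 48 h, against 5.84, 5.20 and 5.30 at 24 h. Control cells gave 6.67, 7.12 and 7.18 at 48 h, against 5.82, 5.19 and 5.15 at 24 h. The times did not overlap in RHOXF1 cells or in control, while in RHOXF2 cells replicate 3 of 48 h read below replicate 1 of 24 h. ABI3BP rose 2.10-fold in RHOXF1 cells (1.07 ± 0.24 on the log2 scale, SE, 3 arrays each, adjusted p = 0.0218 by limma), rank 8 from the highest of the 21214 clusters. Its change in RHOXF2 cells was 0.66 ± 0.24, with a 95% interval of 0.15 to 1.17 and rank 75. In control it was 1.61. At 24 h ABI3BP lay between the array median and the lower quartile of all clusters, which was 4.92 to 5.02 on those arrays.

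L1CAM, the adhesion molecule, had 9.90, 9.90 and 9.85 in RHOXF1 cells at 48 h, against 9.15, 8.57 and 8.67 at 24 h. In RHOXF2 cells its values were 9.68, 9.96 and 9.44 at 48 h, against 9.04, 8.18 and 8.52 at 24 h. In control they were 9.48, 10.32 and 9.80 at 48 h, against 9.02, 8.16 and 8.31 at 24 h. No vector had an array of 48 h at or below an array of 24 h. L1CAM rose 2.13-fold in RHOXF1 cells (1.09 ± 0.24, limma adjusted p = 0.0181) and 2.16-fold in RHOXF2 cells (1.11 ± 0.24, adjusted p = 0.0336), at ranks 7 and 4 of all clusters. In control the difference was 1.37.

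RRAS, the GTPase, had 10.21, 9.74 and 10.11 in RHOXF1 cells at 48 h, against 9.37, 8.88 and 8.96 at 24 h. The values in RHOXF2 cells were 9.88, 9.84 and 9.74 at 48 h, against 9.47, 8.97 and 8.74 at 24 h, and those of control 10.49, 10.22 and 10.18 at 48 h, against 9.25, 8.47 and 8.91 at 24 h. The times were separate with every vector, and the RHOXF2 arrays of 48 h were close together (SD 0.07). RRAS rose by 0.95 ± 0.19 in RHOXF1 cells (limma adjusted p = 0.013, rank 15). Its change in RHOXF2 cells was 0.76 ± 0.19 (95% interval 0.36 to 1.16, rank 27), and in control 1.42.

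FAXDC2, the hydroxylase-family gene, had 8.39, 8.0 and 8.42 in RHOXF1 cells at 48 h, against 7.41, 6.85 and 6.66 at 24 h. It had 8.11, 8.17 and 7.57 in RHOXF2 cells at 48 h, against 7.45, 6.7 and 6.73 at 24 h. Control arrays read 8.12, 8.24 and 8.61 at 48 h, against 7.36, 6.50 and 6.59 at 24 h. Here too the times did not overlap with any vector. FAXDC2 rose 2.45-fold in RHOXF1 cells (1.29 ± 0.25, limma adjusted p = 0.00995), the lowest adjusted p of the 5 genes, and rank 3 of all clusters. In RHOXF2 cells the change was 0.99 ± 0.25 (95% interval 0.48 to 1.51, rank 8), and in control 1.51.

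ZC3H6, the zinc finger gene, had 8.64, 8.21 and 8.53 in RHOXF1 cells at 48 h, against 7.49, 7.01 and 6.96 at 24 h. The RHOXF2 values were 8.50, 8.48 and 7.41 at 48 h, against 7.68, 6.68 and 6.73 at 24 h, and the control values 8.39, 9.25 and 8.96 at 48 h, against 7.60, 6.92 and 6.49 at 24 h. As for ABI3BP, the times were separate in RHOXF1 cells and in control, and replicate 3 of RHOXF2 at 48 h fell below replicate 1 of 24 h. ZC3H6 rose by 1.31 ± 0.32 in RHOXF1 cells (limma adjusted p = 0.0276, rank 2). Its change in RHOXF2 cells was 1.10 ± 0.32 (95% interval 0.43 to 1.76, rank 5), and in control 1.86, the highest of all clusters.

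**Figure D2:**
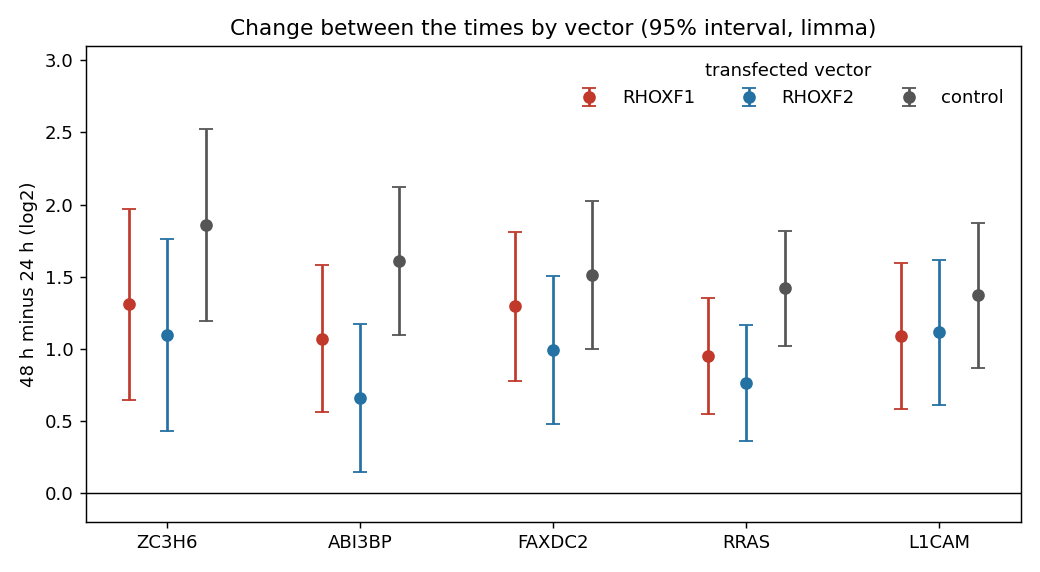
Difference between 48 h and 24 h (log2, vertical axis) of each gene by transfected vector; points are limma estimates from 3 arrays against 3 and bars their 95% intervals. The RHOXF1 estimates lie between 0.95 and 1.31, the RHOXF2 estimates between 0.66 and 1.11, and the control estimates, which chose the genes, between 1.37 and 1.86.

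RHOXF1 and RHOXF2 cells were compared directly, on arrays that did not enter the ranking. The spread behind the intervals and p-values was estimated over all 18 arrays, so the control arrays do share in it. The RHOXF1 change minus the RHOXF2 change was 0.41 for ABI3BP (95% interval -0.31 to 1.13), 0.30 for FAXDC2 (-0.43 to 1.03), 0.21 for ZC3H6 (-0.73 to 1.15), 0.19 for RRAS (-0.38 to 0.76) and -0.02 for L1CAM (-0.74 to 0.69). None of the 5 differences passed the limma test, with an adjusted p of 1 for each and unadjusted p values from 0.25 to 0.944. limma called 0 of all 21214 clusters in this comparison (0% called, and 373 with an unadjusted p under 0.05). In this fit the interval of ZC3H6, the widest, holds both 0 and 1.10, the size of its change in RHOXF2 cells. Fitted on RHOXF1 and RHOXF2 arrays alone, the SE of its difference was 0.405 in place of 0.449, which makes the interval narrower. For L1CAM the SE was 0.272 in place of 0.34. In that fit too limma called 0 of the 5 differences. At 48 h alone, ABI3BP read 0.51 ± 0.24 higher in RHOXF1 than in RHOXF2 cells (limma unadjusted p = 0.0507, adjusted p = 0.998). The other 4 genes differed by 0.19 to 0.33, and the arrays overlapped for all 5 genes. At 24 h the 5 genes differed by 0.01 to 0.22 between the 2 vectors, all with an adjusted p of 1 and overlapping arrays. Of all clusters limma called 0.0519% between RHOXF1 and RHOXF2 at 48 h and 0.0141% at 24 h, and all RHOXF1 arrays lay above all RHOXF2 arrays for 4.78% at 48 h and 3.84% at 24 h.

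In control 9.89% of all clusters were called higher at 48 h, and for 14.7% all 48 h arrays lay above all 24 h arrays. Set beside control, the 10 changes of the 5 genes in RHOXF1 and RHOXF2 cells were all below the control change of the same gene. RHOXF1 minus control was -0.55 for ZC3H6, -0.54 for ABI3BP, -0.47 for RRAS, -0.28 for L1CAM and -0.22 for FAXDC2. RHOXF2 minus control was -0.95 for ABI3BP, -0.76 for ZC3H6, -0.66 for RRAS, -0.52 for FAXDC2 and -0.26 for L1CAM. The genes were picked for the highest control change, which by itself places the control value above that of other arrays, so the sign of these gaps is no finding, they were not tested, and the RHOXF1 and RHOXF2 gaps share the same control arrays. By time, the group means ran in the same order for ZC3H6, ABI3BP, FAXDC2 and RRAS: control 48 h, RHOXF1 48 h, RHOXF2 48 h, RHOXF1 24 h, RHOXF2 24 h and control 24 h, from high to low. For L1CAM RHOXF1 48 h (9.89) came before control 48 h (9.87), and the rest of the order was the same. Choosing genes by the control change favours control 48 h at the top and control 24 h at the bottom. The places of the control groups are therefore no finding, and genes that vary together do not give independent orders. Neighbours in these orders overlapped in their arrays, except that RHOXF2 48 h and RHOXF1 24 h were separate for FAXDC2, RRAS and L1CAM. At 48 h RHOXF2 minus control was -0.88 for ABI3BP, -0.74 for ZC3H6, -0.48 for RRAS, -0.37 for FAXDC2 and -0.17 for L1CAM, again as a description.

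**Figure D3:**
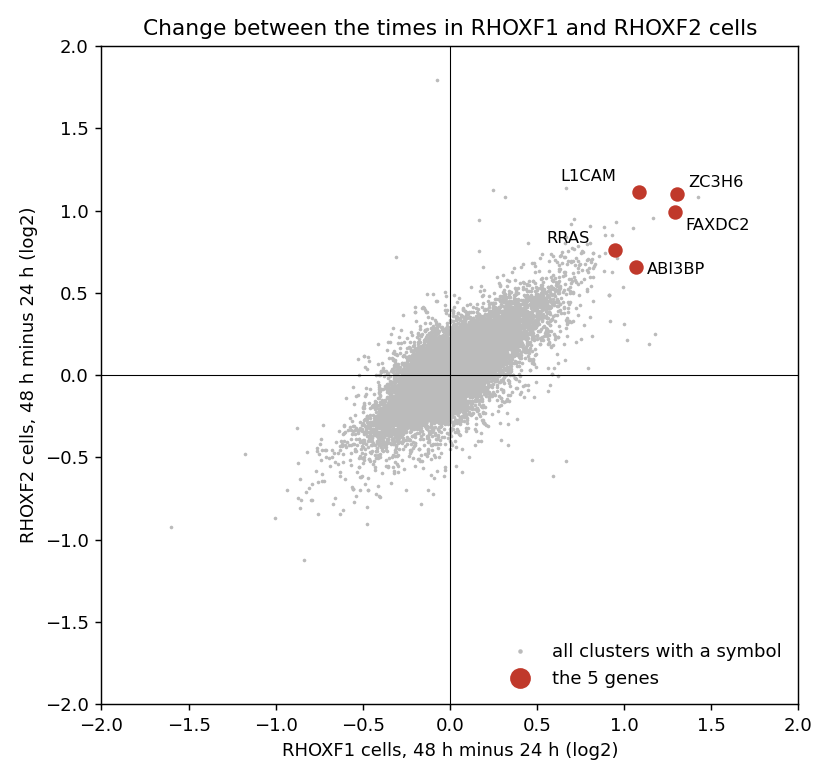
Difference between 48 h and 24 h (log2) in RHOXF1 cells (horizontal axis) and in RHOXF2 cells (vertical axis) for 21214 clusters with a symbol (grey) and the 5 genes (red, named). The 5 genes lie at the upper right, with ABI3BP at 1.07 and 0.66 lowest on the vertical axis.

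The 5 genes also varied together among arrays of the same group. At 24 h replicate 1 was the highest of its 3 arrays in 15 of 15 combinations of gene and vector, by 0.30 to 0.65 above the group mean, and at 48 h replicate 3 of RHOXF2 was the lowest of its group for all 5 genes, by 0.08 for RRAS to 0.72 for ZC3H6. At 48 h replicate 1 of control was the lowest for 4 of the 5 genes, with RRAS the exception, where it was the highest. Over the 18 arrays the levels of any 2 of the genes correlated at 0.91 to 0.98 (Pearson). These arrays include the control arrays that chose the genes, so a shared rise with time lifts these values by itself. The deviations from the group means, which leave out time and vector, correlated at 0.54 to 0.95. The highest of these was between ZC3H6 and ABI3BP and the lowest between ZC3H6 and RRAS. These are descriptions over arrays that were normalized together. The same arrays stood apart over all clusters on the first principal component: replicate 1 at 24 h (-11.2 to -8.7) and RHOXF2 replicate 3 at 48 h (-4.5). Over all clusters with a symbol, the deviations of RHOXF1 and RHOXF2 replicate 1 at 24 h correlated at 0.519. How many other clusters share the pattern was not counted, and genes that vary together do not give independent combinations. Whether it is particular to the 5 genes was not tested.

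**Figure D4:**
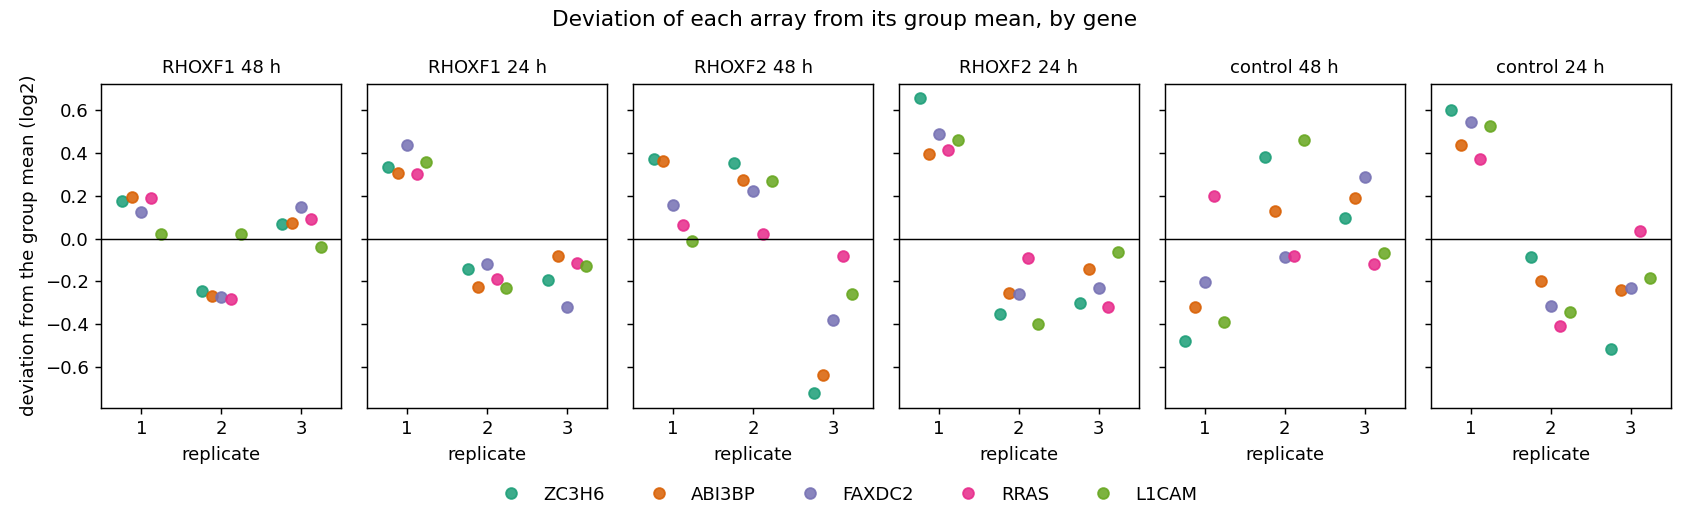
Deviation of each array from its group mean (log2, vertical axis) by replicate number (horizontal axis) for the 5 genes (colours) in the 6 groups. In the 24 h panels replicate 1 lies 0.30 to 0.65 above the mean for every gene, and in the RHOXF2 48 h panel replicate 3 lies below it for every gene.

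The changes were also computed without arrays in which the 5 genes were lowest at 48 h or highest at 24 h. These arrays were singled out by the values of the genes themselves. Leaving them out raises the changes by itself, so that direction is no finding. Without replicate 3 of RHOXF2 at 48 h, all 5 genes passed the limma test in RHOXF2 cells: ZC3H6 changed by 1.46 (adjusted p = 0.0184), L1CAM by 1.24 (0.0192), FAXDC2 by 1.18 (0.0214), ABI3BP by 0.98 (0.0239) and RRAS by 0.80 (0.04997), with 801 clusters called in place of 264. The RHOXF1 change minus the RHOXF2 change was then -0.15 for ZC3H6, 0.09 for ABI3BP, 0.11 for FAXDC2, 0.15 for RRAS and -0.15 for L1CAM. Without the 3 arrays of replicate 1 at 24 h, the 5 changes were 1.10 to 1.51 in RHOXF1 cells, all called, and 0.86 to 1.42 in RHOXF2 cells, with 4 of 5 called and ABI3BP at an adjusted p of 0.0581. The RHOXF1 calls needed most of their arrays: 4 of the 5 were lost without replicate 2 of 24 h (162 clusters called) or replicate 1 of 48 h (164), with FAXDC2 remaining at adjusted p values of 0.0495 and 0.0481, and all 5 were lost without replicate 3 of 24 h (13 clusters called; adjusted p from 0.0648 to 0.127) or replicate 3 of 48 h (95; 0.0577 to 0.105). The change itself stayed between 0.85 and 1.51 through all of these. For L1CAM in RHOXF2 cells the call was lost without replicate 2 (0.91, adjusted p = 0.166) or 3 (1.08, 0.138) of 24 h, or replicate 1 (1.12, 0.0823) or 2 (0.98, 0.191) of 48 h. In each of these fits limma called 0 of the 5 genes in RHOXF2 cells. Without replicate 1 of RHOXF2 at 24 h it called 4 of the 5.

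The clusters whose levels over the 18 arrays were most like the mean profile of the 5 genes were FN1 (Pearson r = 0.988), IDH2, a mitochondrial isocitrate dehydrogenase (0.986), ACSF2, an acyl-CoA synthetase family member (0.985), R3HDM2 (0.984) and NID2, the basement membrane protein nidogen 2 (0.983). These correlations describe arrays that share time and array order and include the control arrays that chose the genes, and carry no test. FN1 rose by 0.89 in RHOXF1 cells (limma adjusted p = 0.0145) and read 0.74 higher in RHOXF2 cells (adjusted p = 0.0524). NID2 rose in both, by 0.80 (adjusted p = 0.0078) and 0.70 (adjusted p = 0.0258). Gene by gene, ZC3H6 was most like AZIN2 (0.985) and ABI3BP (0.981), ABI3BP most like ZC3H6 (0.981) and FN1 (0.972), and FAXDC2 most like IDH2 (0.994) and ACSF2 (0.984). RRAS was most like VAT1 (0.974) and SERPINF1, a secreted serpin (0.965), and L1CAM most like MAGED2 (0.983) and COL6A1, a collagen VI chain (0.977).

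Relatives and partners of the 5 proteins were read in the same comparisons. Among 36 genes of extracellular matrix proteins, 10 rose in RHOXF1 cells between the times and 4 in RHOXF2 cells, none fell, and the median changes were 0.26 and 0.32, beside 3.06% and 0.985% of all clusters called higher. NID2, HSPG2, the basement membrane proteoglycan perlecan (0.72 with RHOXF1, adjusted p = 0.00875; 0.56 with RHOXF2, adjusted p = 0.0417), and COL6A1 (0.63 with each, adjusted p = 0.00985 and 0.0242) rose in both. Without replicate 3 of RHOXF2 at 48 h, 13 of the 36 were called higher in RHOXF2 cells, beside 2.26% of all clusters, and without the arrays of replicate 1 at 24 h 11 were, beside 2.14%. Of 23 genes of the L1 family and its binding partners, 4 rose in RHOXF1 cells and 1 in RHOXF2 cells, with medians of 0.07 in each. The neural adhesion molecule NCAM1 rose in both (0.83, adjusted p = 0.00913, and 0.74, adjusted p = 0.0309). NRCAM, an L1 relative (0.53, adjusted p = 0.0351), and ANK3, the ankyrin G gene (0.32, adjusted p = 0.0417), rose in RHOXF1 cells, and 1 of the 23 was called there without the arrays of replicate 1 at 24 h, beside 2.93% of all clusters called higher.

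Among 24 other Ras family GTPases, GEM, an RGK-type GTPase, rose in RHOXF1 cells (0.59, adjusted p = 0.0179) and in RHOXF2 cells (0.58, adjusted p = 0.0377). RAP1B fell by 0.26 in RHOXF1 cells (adjusted p = 0.0476), and 22 and 23 of the 24 were not called. Without the arrays of replicate 1 at 24 h, 1 of the 24 was called higher in RHOXF1 cells and 0 lower. Of all clusters 2.93% and 1.02% were called so in that fit. For this list and those below, the share of all clusters called with all 18 arrays was 4.42% in RHOXF1 cells (3.06% higher, 1.35% lower). In RHOXF2 cells it was 1.24%, and 3539 of the 21214 clusters had an unadjusted limma p under 0.05. In lists this short, no call or 1 call is near these shares. Of 33 other CCCH zinc finger genes, the splicing regulator gene MBNL2 rose in RHOXF1 cells (0.39, adjusted p = 0.0488), and RBM27 (fell by 0.42, adjusted p = 0.0142) and the antiviral gene ZC3HAV1 (fell by 0.35, adjusted p = 0.0328) went the other way. None of the 33 was called in RHOXF2 cells by limma (9 with an unadjusted p under 0.05), and the medians were -0.10 with RHOXF1 and -0.09 with RHOXF2. Without the arrays of replicate 1 at 24 h, 0 of the 33 were called higher in RHOXF1 cells and 1 lower. Of 13 genes of sterol synthesis and fatty acid hydroxylation, NSDHL, an enzyme of sterol C4 demethylation, fell by 0.43 in RHOXF1 cells (adjusted p = 0.0412) and no gene rose. DHCR7, the last enzyme of a route to cholesterol, did not pass the test (-0.37 with RHOXF1, adjusted p = 0.0674, and -0.32 with RHOXF2, adjusted p = 0.157), and the medians were -0.09 with RHOXF1 and -0.19 with RHOXF2. In RHOXF2 cells limma called none of the 13 (6 with an unadjusted p under 0.05). Without replicate 3 of RHOXF2 at 48 h, 3 of the 13 were called lower in RHOXF1 cells and 2 in RHOXF2 cells, beside 2.32% and 1.51% of all clusters, and without the arrays of replicate 1 at 24 h none was in either, beside 1.02% and 0.735%. Of 31 genes linked to quiescence and FOXO factors, 3 rose in RHOXF1 cells, namely the thioredoxin-binding arrestin gene TXNIP (0.83, adjusted p = 0.0146; 0.66 with RHOXF2, adjusted p = 0.0594), SESN3 (0.36, adjusted p = 0.0254) and PIK3IP1 (0.47, adjusted p = 0.0363). None of these 31 was called by limma in RHOXF2 cells (11 with an unadjusted p under 0.05), where 29 read above 0 with a median of 0.15, and 2 were called higher without replicate 3 of 48 h, beside 2.26% of all clusters.

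The stretch before the gene start is shown for the 4 genes listed in RefSeq's promoter table (GRCh38.p14). The genes were put together by their control change, and shared regulation was not tested. Each line gives the 250 bases before the start, 5′ to 3′ on the gene's own strand. Capitals mark matches on either strand to any of 7 motifs. The homeodomain core searched was TAAT and the TEAD motif was GGAATG. The E-box was CACGTG, the CCAAT box was CCAAT and the GC box was GGGCGG. The AP-1 motif was TGANTCA and the TATA box was TATAAA. For L1CAM the table holds 2 windows 70 bases apart, and the first listed is shown.
ZC3H6, chr2:112275347-112275596, plus strand: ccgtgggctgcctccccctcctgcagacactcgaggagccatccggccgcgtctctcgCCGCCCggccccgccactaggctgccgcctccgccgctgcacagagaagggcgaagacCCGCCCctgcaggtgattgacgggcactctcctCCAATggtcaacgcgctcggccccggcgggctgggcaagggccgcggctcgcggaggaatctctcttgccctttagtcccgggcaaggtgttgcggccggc
ABI3BP, chr3:100993422-100993671, minus strand: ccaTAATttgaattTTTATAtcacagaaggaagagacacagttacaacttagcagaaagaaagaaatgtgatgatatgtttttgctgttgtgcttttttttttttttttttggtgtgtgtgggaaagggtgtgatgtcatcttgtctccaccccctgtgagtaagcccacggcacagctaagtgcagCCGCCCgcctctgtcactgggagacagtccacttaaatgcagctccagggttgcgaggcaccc
FAXDC2, chr5:154850604-154850853, minus strand: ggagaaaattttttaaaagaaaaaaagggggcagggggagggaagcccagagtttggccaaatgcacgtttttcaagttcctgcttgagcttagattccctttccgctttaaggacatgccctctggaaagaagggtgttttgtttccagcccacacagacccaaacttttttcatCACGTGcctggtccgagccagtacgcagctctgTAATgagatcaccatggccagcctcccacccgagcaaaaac
L1CAM, chrX:153875945-153876194, minus strand: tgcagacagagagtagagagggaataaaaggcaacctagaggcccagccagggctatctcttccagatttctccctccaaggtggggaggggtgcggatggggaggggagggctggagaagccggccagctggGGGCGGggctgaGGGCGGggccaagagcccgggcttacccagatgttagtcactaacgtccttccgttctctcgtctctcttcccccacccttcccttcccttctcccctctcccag
The 4 windows differed in base composition, with 72.0% G and C before ZC3H6, 62.4% before L1CAM, 49.2% before FAXDC2 and 45.2% before ABI3BP, beside a median of 58.0% over 27305 windows. TAAT was found before ABI3BP and FAXDC2, once each, and in 48.2% of all windows of this length. GC boxes lay before ZC3H6, L1CAM and ABI3BP (42.3% of all windows), CCAAT before ZC3H6 (33.0%), CACGTG before FAXDC2 (6.5%) and TATAAA before ABI3BP (11.1%). GGAATG (11.9% of all windows) and TGANTCA (6.6%) were in none of the 4. No motif was common to all 4 windows.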

How the data were processed

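RNA of 18 HEK293 samples was measured on Affymetrix arrays, 1 per sample. The deposited values are log2 RMA expression values per transcript cluster, made by the authors with Affymetrix Expression Console 3.1, per the labels and the submitters' processing notes. RMA corrects background, quantile-normalizes and summarises probes, which equalises the arrays' distributions and compresses large differences. The array descriptions name a Human Gene ST design and the series text an exon array; the genome build behind the probes is not given in the sources used here. The number of arrays limits the precision.

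Symbols came from the probe table given for the platform: of 33297 clusters 19460 had 1 symbol, 1754 several and 12083 none. The 5 genes matched RefSeq's gene table by Entrez identifier. For the 21214 named clusters, limma 3.58.1 under R 4.3.3 estimated the differences (lmFit and eBayes; 1 mean per group, 18 arrays, 12 residual and 6.5 prior degrees of freedom), two-sided, with Benjamini-Hochberg adjustment at 0.05. SE is limma's moderated one. No filter on dim clusters was used, and the fit was tested on simulated data. Nothing beyond the word triplicate says how replicates were made, so p-values measure the spread between these samples.

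The genes and the lists of relatives were chosen with earlier results of these data known. Named from each list were up to 3 members called in RHOXF1 or RHOXF2 cells by smallest p, filled up to 2, and the clusters most like each gene by Pearson correlation. A gene with several clusters was read by the brightest. Arrays that share a replicate number had deviations correlating above 0.1 in 2 of 3 pairs of RHOXF1 and RHOXF2 at 24 h. At 48 h 2 of 3 did. Between the times 1 of 6 pairs did, so the numbers were not taken to pair arrays across the times. Within a time the arrays of a number went partly together (r = 0.519 for replicate 1 at 24 h), which the main fit left out. With numbers within time as a fixed block, limma called 0 of the 5 genes between RHOXF1 and RHOXF2 at either time, and 0 for the difference of the changes. Alternatives covered the arrays fitted, moderation, normalization, a level filter, the clusters tested, replicate blocks and leaving out arrays. No pair of arrays held identical values.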

Additional observations from a re-analysis of the deposited data

How the results depend on the processing

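Of the 5 changes in RHOXF1 cells, FAXDC2 and RRAS stayed called under all 11 alternatives other than leaving out single arrays; ZC3H6 lost its call with limma's trend and robust options, and ZC3H6, ABI3BP and L1CAM with clusters without symbols included. In RHOXF2 cells L1CAM lost its call with the trend and robust options (adjusted p = 0.0546), with the 2 groups alone (0.086) and with clusters without symbols (0.0602), while FAXDC2 and RRAS gained theirs with RHOXF1 and RHOXF2 arrays alone (0.04 and 0.0402) and among clusters above the median level (0.0451 and 0.0462), and RRAS after repeated quantile normalization (0.0453). No change over time turned sign in any alternative. The counts of clusters called moved more: in RHOXF1 cells from 937 to 1802 with the 2 groups alone and 447 with clusters without symbols; in RHOXF2 cells from 264 to 10 and 165 under the same alternatives, 429 with RHOXF1 and RHOXF2 arrays alone and 610 without the arrays of replicate 1 at 24 h, which was chosen after seeing the data. With the replicate block over all arrays RHOXF2 gave 438, and FAXDC2 (adjusted p = 0.0273) and RRAS (0.0124) were called there; with numbers within time as a random replicate block they were called too (0.0466 and 0.0477). The blocks changed no other call of the 5 genes. RHOXF1 against RHOXF2 gave 11 clusters at 48 h, and 6, 5 and 4 with the 2 groups alone, clusters without symbols and single symbols; at 24 h it gave 3, and 1 with single symbols and 5 without the replicate 1 arrays. The difference of the changes gave 1 cluster with single symbols and with each of the 3 replicate blocks. FAXDC2 at 24 h was -0.005 after repeated quantile normalization. The cause of these moves was not tested.

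Arrays were left out 1 at a time, and for each comparison only arrays of the groups compared. The ranges below do not cover the other arrays, which also enter the fit. Without RHOXF2 replicate 3 at 48 h, 3.93% of all clusters were called higher in RHOXF1 cells and 2.32% lower. With all arrays these shares were 3.06% and 1.35%. Within the groups compared, the clusters called ran from 13 to 722 in RHOXF1 cells and from 4 to 801 in RHOXF2 cells. Between RHOXF1 and RHOXF2 they ran from 4 to 12 at 48 h and from 3 to 5 at 24 h. They ran from 0 to 1 for the difference of the changes. That difference ran from -0.254 to 0.176 for L1CAM, -0.151 to 0.394 for ZC3H6 and -0.018 to 0.349 for RRAS. RHOXF1 minus RHOXF2 ran from -0.028 to 0.517 for ZC3H6 at 48 h, and at 24 h from -0.054 to 0.449 for ZC3H6, -0.053 to 0.297 for ABI3BP, -0.205 to 0.258 for FAXDC2 and -0.147 to 0.219 for RRAS.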
